A study of Mus musculus with 10 samples.

Results

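The primitive endoderm genes described here are 10 genes taken by name from the established markers of that lineage: the transcription factor genes Gata4, Gata6, Sox7, Sox17, Foxa2 and Hnf4a, the receptor tyrosine kinase gene Pdgfra, and the endocytosis genes Dab2, Amn and Cubn. They hold 14 of the 28706 sites (31 of 43031 features) and are 10 of the 19484 genes that could be named from the mouse annotation. The data are RNA-seq of mouse embryonic stem cells (ESC), all labelled C57BL/6 and grown with LIF and fetal calf serum on mitomycin C-treated embryonic fibroblasts or on gelatin. WT cells were sampled beside DIDO3ΔE16 cells, which are homozygous for deletion of the DIDO3-specific exon of Dido1 by Tg(SOX2-Cre)1Amc recombination of a floxed allele, and beside DIDO3ΔCT+HADIDO3 cells, which carry a constitutive C-terminal deletion of DIDO3 and express HA-tagged DIDO3 after stable transfection. Each group gave 3 libraries; of the 4 WT samples listed, replicates 2 and 3 are the same library, called WT replicate 2-3. The number of ESC lines or clones behind each group is not stated.

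Primitive endoderm is the epithelium that forms on the cavity side of the inner cell mass in the blastocyst and goes on to build the visceral and parietal endoderm of the yolk sacs. In the embryo, FGF4 from neighbouring cells acts through FGF receptors and ERK to favour GATA6 over NANOG, and GATA6 is followed by PDGFRA, SOX17, GATA4 and SOX7. ESC cultures in serum and LIF are known to hold a small share of cells that express these genes, so a bulk level is an average over unlike cells.

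A feature is the annotated 3′UTR of a transcript with 2 kb added downstream. Features with the same coordinates were summed into a site, and a gene is given by its leading site, the site with the highest mean level over the 9 libraries. Sums of lists, and the most abundant gene of a list, are over all sites of each gene. Levels are in TPM, the length-normalized share of a library, so levels of different genes are compared per length of 3′UTR plus 2 kb. Aligned bases in sites came to 1.95 to 2.26 Gb in WT libraries, 1.46 to 2.15 Gb in DIDO3ΔE16 and 2.15 to 2.61 Gb in DIDO3ΔCT+HADIDO3, and 22885 to 24045 sites per library were above 0 TPM. Differences are log2 fold changes of scaled TPM + 0.1, fitted with limma over all sites above 0 in every library of a comparison; the added 0.1 understates the change of genes with low levels. A site was called when its absolute log2 fold change was at least 0.7 and its Benjamini-Hochberg adjusted p was under 0.05. Because the labels do not say whether libraries of a group came from separate cultures, the p-values measure only the spread between these libraries. By relabelling libraries alone, groups of 3 and 3 never reach a 2-sided p under 0.1. Both mutant groups were compared with the same WT libraries, so their differences from WT are given side by side and are not independent.

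The targeted gene Dido1 was read at its 3 sites. At the proximal Dido1 site (chr2:180678954-180683548), the level was 51.6, 50.8 and 48.5 TPM in WT replicates 1, 2-3 and 4, 6.16, 7.05 and 6.65 TPM in DIDO3ΔE16 replicates 1 to 3, and 46.6, 43.9 and 43.8 TPM in DIDO3ΔCT+HADIDO3 replicates 1 to 3. All 3 DIDO3ΔE16 libraries were low, and the other 6 stood well above them. At the middle site (chr2:180663936-180669364) the order was turned, with 4.90, 4.78 and 4.79 TPM in WT, 90.7, 96.1 and 81.7 TPM in DIDO3ΔE16, and 8.65, 7.30 and 8.44 TPM in DIDO3ΔCT+HADIDO3. At the distal site (chr2:180655963-180659338) it was 17.9, 16.8 and 13.7 TPM in WT, 0.546, 0.511 and 0.307 TPM in DIDO3ΔE16, and 12.1, 11.5 and 10.9 TPM in DIDO3ΔCT+HADIDO3. DIDO3ΔE16 was far from both other groups at every site. DIDO3ΔCT+HADIDO3 did not overlap WT at any of them but differed from it by less than the fold change asked of a call, and these sites alone do not show the deletion in its label. Library values are listed in this replicate order from here on.

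The cell type label was checked on 12 ESC markers, all of which were at or above 1 TPM in every library. Their summed level was 6175, 7359 and 6130 TPM in WT, 8617, 8172 and 8115 TPM in DIDO3ΔE16 and 8466, 6498 and 8046 TPM in DIDO3ΔCT+HADIDO3, with Tdgf1 the most abundant in every library at 2081 to 2400 TPM. Some libraries stood apart at particular genes. Esrrb, over all its sites, was 30.7, 1176 and 29.8 TPM in WT and 51.4 TPM in DIDO3ΔCT+HADIDO3 replicate 2, and Nanog was 3.10 TPM in WT replicate 4 alone. Among the members, Dab2 was 1.06 TPM in WT replicate 1 and 18.9 and 20.9 TPM in the other WT libraries. By a rule chosen after these values were seen, a library at least 8-fold below both others of its group, this occurred at 910 of 17624 WT sites (5.16%), at 793 of 18546 DIDO3ΔE16 sites (4.28%) and at 879 of 18102 DIDO3ΔCT+HADIDO3 sites (4.86%) with a group mean of at least 1 TPM. The opposite case, a library at least 8-fold above both others, occurred at 397 (2.25%), 380 (2.05%) and 451 (2.49%) of these sites. Dab2 in WT was the only member site among them, and its results are given with and without WT replicate 1.

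In WT cells the members spanned a wide range of levels, per length. Gata4 was highest at 33.5 ± 2.51 TPM (SD, n = 3), above 72.7% of the sites with a level above 0. Dab2 (13.6 ± 10.9 TPM), Gata6 (12.9 ± 0.686 TPM), Pdgfra (12.2 ± 1.04 TPM), Cubn (10.6 ± 1.06 TPM) and Sox7 (9.60 ± 0.456 TPM) followed, and in this run each overlapped the next. Sox17 at 3.0 ± 0.544 TPM lay below all of these mean levels and above Foxa2 at 1.498 ± 0.529 TPM, without overlap on either side of its place in the order. Foxa2, Amn (1.31 ± 0.228 TPM) and Hnf4a (1.19 ± 0.148 TPM) overlapped from each to the next at the bottom. Summed over all their sites, the 10 genes came to 95.4, 111 and 124 TPM in WT, 46.0, 54.4 and 56.2 TPM in DIDO3ΔE16, and 37.2, 38.4 and 43.2 TPM in DIDO3ΔCT+HADIDO3, so the groups did not overlap in this sum and WT was highest. In these bulk libraries, fewer cells of a type and less RNA per cell cannot be told apart.

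**Figure D1:**
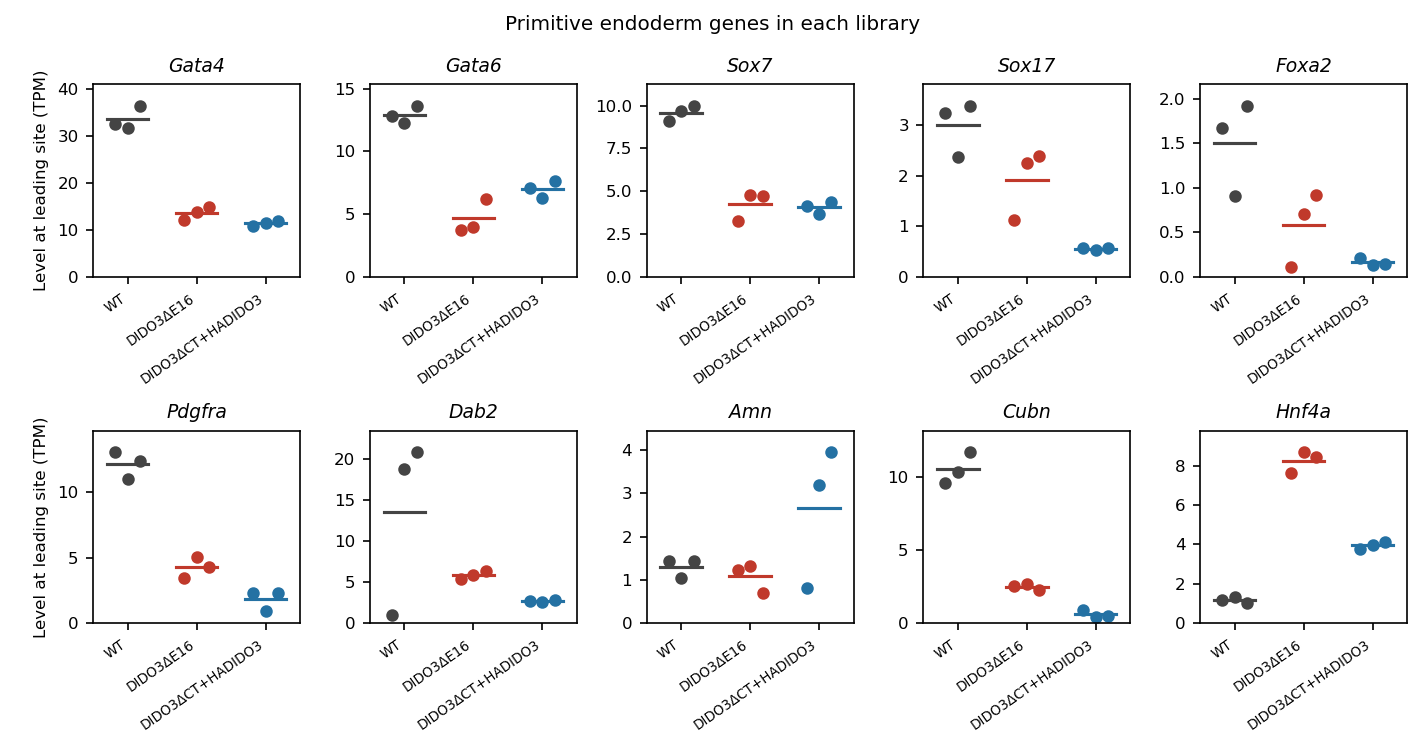
Level of each of the 10 genes at its leading site in TPM (vertical axes, each starting at 0) in the 3 libraries of each group (points) with the group mean (bar). Gata4 runs from 31.7 to 36.4 TPM in WT and lies lower in both mutant groups, while Hnf4a is lowest in WT.

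Promoter sequence from RefSeq (GRCm38.p6) was used for 6 of the 10 genes, those matched in the promoter table at hand: Foxa2, Pdgfra, Dab2, Amn, Cubn and Hnf4a. Because genes of GATA factors are in the set, the 10 promoter windows of these genes (250 bases before to 50 after a transcription start) were searched for AGATAA and its reverse complement TTATCT, a form of the GATA motif. It was found in 3 windows, of Foxa2 (chr2:148045630-148045659, reverse strand), Hnf4a (chr2:163506793-163506822, forward strand) and Dab2 (chr15:6299791-6299820, forward strand), and 3672 of all 32851 promoter windows (11.2%) hold it. The 30 bases around each match are shown 5′ to 3′ on the strand of the gene, with the match in capitals:
Foxa2: ctgttagccttgAGATAAtattaactttgt
Hnf4a: gaagaatcaataAGATAAccgggcggggtg
Dab2: attctctttggcTTATCTgctgtgcatttt
A match of letters is a description of the sequence and not a binding site.

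Gata4 encodes a zinc finger transcription factor of primitive endoderm and its derivatives. Its leading site (chr14:63196914-63200374, reverse strand) stood at 32.5, 31.7 and 36.4 TPM in WT, 12.0, 13.8 and 14.8 TPM in DIDO3ΔE16, and 10.7, 11.5 and 11.9 TPM in DIDO3ΔCT+HADIDO3. Every WT library was far above every mutant library, and the mutant groups stood close together. With means of 13.5 ± 1.42 TPM (SD, n = 3) in DIDO3ΔE16 and 33.5 ± 2.51 TPM in WT, the log2 fold change was −1.37 (standard error, SE, 0.10; limma, Benjamini-Hochberg adjusted p = 0.000836). In DIDO3ΔCT+HADIDO3, at 11.4 ± 0.606 TPM, the difference from WT was −1.65 (SE 0.08; limma, Benjamini-Hochberg adjusted p = 0.000212). A minor Gata4 site (chr14:63238536-63240536) ranged from 0 to 0.263 TPM and was not tested.

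Gata6 encodes the GATA factor that acts at the start of the lineage. At its leading site (chr18:11084483-11087635, forward strand) the level was 12.8, 12.3 and 13.6 TPM in WT, 3.76, 3.99 and 6.23 TPM in DIDO3ΔE16, and 7.04, 6.29 and 7.60 TPM in DIDO3ΔCT+HADIDO3. All WT libraries were above all mutant libraries, and here DIDO3ΔE16 was the lowest group, with its replicate 3 just under the lowest DIDO3ΔCT+HADIDO3 library. The log2 fold change of Gata6 in DIDO3ΔE16 (4.66 ± 1.37 TPM) relative to WT (12.9 ± 0.686 TPM) was −1.55 (SE 0.21; limma, Benjamini-Hochberg adjusted p = 0.00436). For DIDO3ΔCT+HADIDO3 (6.98 ± 0.657 TPM) relative to WT it was −0.98 (SE 0.09; limma, Benjamini-Hochberg adjusted p = 0.00136).

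Sox7 and Sox17 encode related SOX factors of extraembryonic endoderm. Sox7 (chr14:63948660-63952732, forward strand) stood at 9.10, 9.71 and 9.99 TPM in WT, 3.24, 4.79 and 4.72 TPM in DIDO3ΔE16, and 4.14, 3.65 and 4.38 TPM in DIDO3ΔCT+HADIDO3. WT was apart from both mutant groups, which overlapped each other. The log2 fold change of Sox7 was −1.24 in DIDO3ΔE16 (SE 0.17; limma, Benjamini-Hochberg adjusted p = 0.00484) and −1.33 in DIDO3ΔCT+HADIDO3 (SE 0.10; adjusted p = 0.000714). Sox17 (chr1:4488928-4491715, reverse strand) was lower in level, at 3.24, 2.38 and 3.38 TPM in WT, 1.12, 2.26 and 2.38 TPM in DIDO3ΔE16, and 0.574, 0.522 and 0.563 TPM in DIDO3ΔCT+HADIDO3. DIDO3ΔE16 replicate 3 just reached the lowest WT library and replicate 2 lay a little below it, while all DIDO3ΔCT+HADIDO3 libraries were below every other library. The log2 fold change of Sox17 in DIDO3ΔCT+HADIDO3 was −2.33 (SE 0.19; limma, Benjamini-Hochberg adjusted p = 0.000817), or −1.41 with a pseudocount of 1. In DIDO3ΔE16 it was −0.73 with an adjusted p of 0.155 (limma, Benjamini-Hochberg), not called, and −0.41 without DIDO3ΔE16 replicate 1.

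Foxa2 encodes a forkhead factor of endoderm, shared by visceral endoderm, node and definitive endoderm, and its promoter window is among the 3 with the motif. Its site (chr2:148040877-148043513, reverse strand) stood at 1.67, 0.904 and 1.92 TPM in WT, 0.108, 0.704 and 0.915 TPM in DIDO3ΔE16, and 0.209, 0.135 and 0.144 TPM in DIDO3ΔCT+HADIDO3. WT replicate 2-3 fell within the range of DIDO3ΔE16, whereas the DIDO3ΔCT+HADIDO3 libraries were all far below WT. Few reads lie behind the low values: DIDO3ΔE16 replicate 1 had 0.124 kb of aligned bases at the site, and the DIDO3ΔCT+HADIDO3 libraries 0.371, 0.228 and 0.295 kb. Foxa2 had a log2 fold change against WT of −2.63 in DIDO3ΔCT+HADIDO3 (SE 0.33; limma, Benjamini-Hochberg adjusted p = 0.00321), or −1.12 with a pseudocount of 1. For DIDO3ΔE16 it was −1.52 (SE 0.69; limma, Benjamini-Hochberg adjusted p = 0.155), not called, −0.82 without DIDO3ΔE16 replicate 1 and −0.71 with a pseudocount of 1.

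Pdgfra encodes the PDGF receptor alpha, an early surface marker of primitive endoderm. Its leading site (chr5:75195101-75200204, forward strand) stood at 13.0, 11.01 and 12.4 TPM in WT, 3.48, 5.02 and 4.30 TPM in DIDO3ΔE16, and 2.30, 0.897 and 2.33 TPM in DIDO3ΔCT+HADIDO3. The groups formed a descending series without overlap, and DIDO3ΔCT+HADIDO3 replicate 2 was the lowest library. The log2 difference of Pdgfra came to −1.56 for DIDO3ΔE16 (4.27 ± 0.771 TPM; SE 0.15; limma, Benjamini-Hochberg adjusted p = 0.00174). In DIDO3ΔCT+HADIDO3 (1.84 ± 0.817 TPM) it was −2.87 (SE 0.38; limma, Benjamini-Hochberg adjusted p = 0.00384).

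Cubn encodes cubilin, the large endocytic receptor of visceral endoderm, which Amn (amnionless) carries to the cell surface. The level of Cubn (chr2:13274338-13276727, reverse strand) was 9.59, 10.4 and 11.7 TPM in WT, 2.55, 2.67 and 2.29 TPM in DIDO3ΔE16, and 0.909, 0.410 and 0.487 TPM in DIDO3ΔCT+HADIDO3. Again the groups did not overlap and WT was highest. Its log2 fold change was −2.09 in DIDO3ΔE16 (2.50 ± 0.199 TPM; SE 0.13; limma, Benjamini-Hochberg adjusted p = 0.000485), with 1.47% of all tested sites lower. In DIDO3ΔCT+HADIDO3 (0.602 ± 0.269 TPM) it was −4.08 (SE 0.30; limma, Benjamini-Hochberg adjusted p = 0.000653), with 0.369% of sites lower. The Cubn site lies inside Gm13270, a processed transcript annotated on the opposite strand, and although the paper calls the sequencing stranded, the quantification named no strand option, so the deposited values do not separate the pair; it was the only member with an overlapping gene.

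Amn did not follow its partner. The level at its site (chr12:111276130-111278426, forward strand) was 1.45, 1.05 and 1.43 TPM in WT, 1.22, 1.33 and 0.705 TPM in DIDO3ΔE16, and 0.818, 3.19 and 3.95 TPM in DIDO3ΔCT+HADIDO3. DIDO3ΔCT+HADIDO3 replicate 1 was below every WT library and the other DIDO3ΔCT+HADIDO3 libraries above them, so the groups overlapped. For Amn in DIDO3ΔE16 the log2 fold change was −0.34 (SE 0.29; limma, Benjamini-Hochberg adjusted p = 0.428), or −0.08 without DIDO3ΔE16 replicate 3. In DIDO3ΔCT+HADIDO3 it was 0.63 (SE 0.60; limma, Benjamini-Hochberg adjusted p = 0.463). Without DIDO3ΔCT+HADIDO3 replicate 1 the latter was 1.28 and called (limma, Benjamini-Hochberg adjusted p = 0.0186; highest over the alternatives 0.799), and it was 0.37 without replicate 2 and 0.23 without replicate 3. Of the 2297 bp at this site, 297 bp are annotated 3′UTR. The annotated part is also small at Cubn (390 of 2390 bp) and at a further Dab2 site upstream of its leading one (224 of 2224 bp).

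Dab2 encodes a clathrin adaptor that works with cubilin and megalin in endocytosis by the endoderm, and its promoter window holds the motif in reverse. Its leading site (chr15:6437046-6442709, forward strand) stood at 1.06, 18.9 and 20.9 TPM in WT, 5.38, 5.92 and 6.33 TPM in DIDO3ΔE16, and 2.74, 2.62 and 2.84 TPM in DIDO3ΔCT+HADIDO3. WT replicate 1 was the lowest of all libraries and the other WT libraries the highest, with DIDO3ΔE16 above DIDO3ΔCT+HADIDO3 between them. With all libraries, the log2 fold change of Dab2 was −0.43 in DIDO3ΔE16 (SE 1.26; limma, Benjamini-Hochberg adjusted p = 0.825) and −1.55 in DIDO3ΔCT+HADIDO3 (SE 1.26; adjusted p = 0.395). Leaving out WT replicate 1 gave −1.82 in DIDO3ΔE16 (limma, Benjamini-Hochberg adjusted p = 0.0022; up to 0.924 over the alternatives), which was called. It gave −2.93 in DIDO3ΔCT+HADIDO3 (limma, Benjamini-Hochberg adjusted p = 0.00101; up to 0.684 over the alternatives), also called. Leaving out WT replicate 2-3 or WT replicate 4 instead gave 0.21 and 0.29 in DIDO3ΔE16, and −0.90 and −0.82 in DIDO3ΔCT+HADIDO3, none of them called.

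Hnf4a encodes a nuclear receptor of the visceral endoderm that controls genes of secretion and lipid transport, and it went the other way. Its level (chr2:163570092-163574907, forward strand) was 1.18, 1.34 and 1.05 TPM in WT, 7.63, 8.67 and 8.45 TPM in DIDO3ΔE16, and 3.78, 3.95 and 4.13 TPM in DIDO3ΔCT+HADIDO3. WT was lowest, DIDO3ΔE16 highest, and no groups overlapped. The log2 fold change of Hnf4a in DIDO3ΔE16 (8.25 ± 0.551 TPM) relative to WT (1.19 ± 0.148 TPM) was 2.64 (SE 0.13; limma, Benjamini-Hochberg adjusted p = 0.0003), with 1.70% of tested sites higher. In DIDO3ΔCT+HADIDO3 (3.95 ± 0.174 TPM) it was 1.56 (SE 0.13; limma, Benjamini-Hochberg adjusted p = 0.000927), with 4.65% of sites higher. Like Foxa2 and Dab2, Hnf4a has a motif match in the promoter windows shown. Hnf4a was called higher in both mutants, and Foxa2 was called lower in DIDO3ΔCT+HADIDO3 only. With all libraries, Dab2 was called in neither mutant at its leading site.

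The members were chosen with earlier results of these data known, so their counts beside those of all sites are a description only. In DIDO3ΔE16 against WT, 6 of the 10 members were called, where 15.1% of all 21063 tested sites were. Of these members 5 were lower (Gata4, Gata6, Sox7, Pdgfra and Cubn), against 4.94% of all sites called lower, and Hnf4a was higher, against 10.2% of sites called higher. The median log2 fold change of the members was −1.31 (range −2.09 to 2.64), where that of all sites was −0.01. Groups did not overlap in the same 6 members, against 49.4% of sites: 5 were wholly below WT, against 21.7% of sites, and 1 wholly above, against 27.6%. In DIDO3ΔCT+HADIDO3 against WT, 8 of the 10 were called, where 17.3% of 20879 sites were. Here 7 were lower, against 7.24% of sites: the same 5 with Sox17 and Foxa2. Hnf4a was higher, against 10.1% of sites. The median of the members was −1.60 (range −4.08 to 1.56) and that of all sites −0.01. The 8 called members were also those without overlap between groups, against 53.5% of sites, 7 of them below WT, against 21.4%, and 1 above, against 32% of sites.

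**Figure D2:**
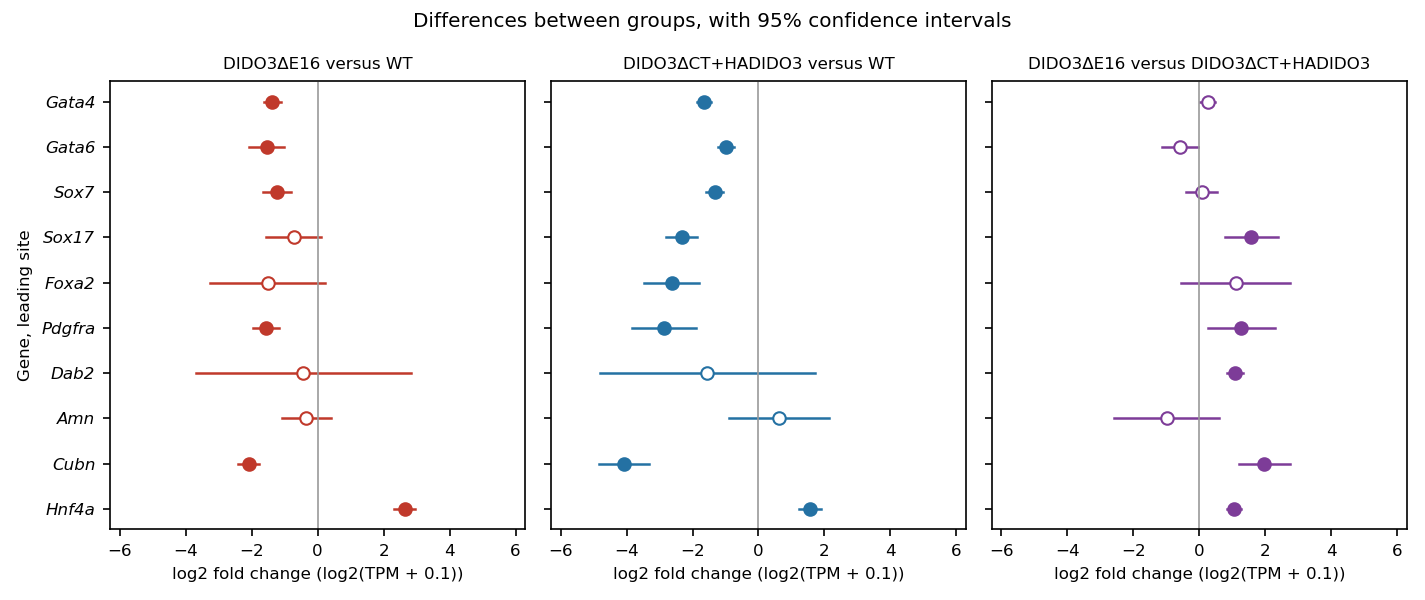
Log2 fold change (horizontal axis, log2(TPM + 0.1) scale) of each gene at its leading site in the 3 comparisons, with 95% confidence intervals from limma as bars; filled points were called and open points were not. Cubn lies farthest to the left at −4.08 in DIDO3ΔCT+HADIDO3, Hnf4a lies to the right of 0 in every panel, and the Dab2 intervals against WT are wide.

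The library names hold sequencing codes, which look like flow cell codes; no label says what they are. Codes that begin alike were grouped into families, which put WT replicates 1 and 4 in a family of their own, though with unlike codes, and WT replicate 2-3 with all the mutants. With the family as a covariate, each difference from WT rests on WT replicate 2-3 alone, so the log2 fold changes are given without a test. In DIDO3ΔE16 they were −1.30 for Gata4, −1.48 for Gata6, −1.26 for Sox7, −1.43 for Pdgfra, −2.07 for Cubn and 2.47 for Hnf4a. Sox17 was then −0.43, Foxa2 −0.92, Dab2 −1.73 and Amn −0.06. In DIDO3ΔCT+HADIDO3 they were −1.58 for Gata4, −0.91 for Gata6, −1.35 for Sox7, −2.02 for Sox17, −2.02 for Foxa2, −2.73 for Pdgfra, −4.06 for Cubn and 1.39 for Hnf4a. Dab2 was −2.85 and Amn 0.91 there.

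The mutant groups were compared directly, without WT libraries, to ask how their levels differ from each other. Of the 10 members 5 were called, all higher in DIDO3ΔE16, where 27.4% of 21172 sites were called and 13.9% were called higher. The median was 1.08 (range −0.99 to 1.97), where that of all sites was 0.01. Cubn had a log2 fold change of 1.97 (SE 0.30; limma, Benjamini-Hochberg adjusted p = 0.00409), or 1.15 with a pseudocount of 1. Sox17 had 1.58 (SE 0.31; limma, Benjamini-Hochberg adjusted p = 0.0102), or 0.89 with a pseudocount of 1. For Dab2 it was 1.09 (SE 0.10; limma, Benjamini-Hochberg adjusted p = 0.000623), and for Hnf4a 1.06 (SE 0.08; adjusted p = 0.000379). The Pdgfra value of 1.28 was close to the threshold (SE 0.40; limma, Benjamini-Hochberg adjusted p = 0.0463). It was 0.85 and called without DIDO3ΔCT+HADIDO3 replicate 2, and not called when any other library of the pair of groups was left out, at 1.5 without DIDO3ΔCT+HADIDO3 replicate 1, 1.48 without its replicate 3, and 1.42, 1.16 and 1.27 without DIDO3ΔE16 replicates 1, 2 and 3.

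The other 5 members were not called between the mutants. Gata4 was 0.26 (SE 0.09; limma, Benjamini-Hochberg adjusted p = 0.0623), although its DIDO3ΔE16 libraries were all higher. Gata6 was −0.59 (limma, Benjamini-Hochberg adjusted p = 0.0735), and −0.81 and called without DIDO3ΔE16 replicate 3 (adjusted p = 0.0076; up to 0.184 over the alternatives). Sox7 was 0.07 with a 95% confidence interval of −0.39 to 0.53, and it was −0.03 without DIDO3ΔE16 replicate 2, −0.01 without its replicate 3 or without DIDO3ΔCT+HADIDO3 replicate 2, and 0.24 without DIDO3ΔE16 replicate 1. Foxa2 was 1.10 (limma, Benjamini-Hochberg adjusted p = 0.227), 1.80 and called without DIDO3ΔE16 replicate 1 (adjusted p = 0.00827; up to 0.473 over the alternatives), 0.66 without DIDO3ΔE16 replicate 3, and 0.40 with a pseudocount of 1. Amn was −0.99 (limma, Benjamini-Hochberg adjusted p = 0.255), −1.64 and called without DIDO3ΔCT+HADIDO3 replicate 1 (adjusted p = 0.0186; up to 0.508 over the alternatives), and −0.60 without its replicate 3. By mean level, 7 members ran from WT through DIDO3ΔE16 down to DIDO3ΔCT+HADIDO3; Gata6, Amn and Hnf4a each had another order. Groups did not overlap in 7 members, against 61.6% of sites: 6 were higher in DIDO3ΔE16, against 29.7%, and Gata6 was lower, against 31.9% of sites.

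Gata6, Pdgfra and Dab2 each have a further site upstream of the leading one, with a level high enough to test, which reads a different part of the gene. The upstream site of Gata6 (chr18:11055339-11059583) stood at 1.37, 1.78 and 1.97 TPM in WT, 0.708, 0.756 and 0.937 TPM in DIDO3ΔE16, and 0.961, 0.870 and 0.851 TPM in DIDO3ΔCT+HADIDO3. WT was above both mutant groups there as well, with log2 fold changes of −1.06 and −0.94 in DIDO3ΔE16 and DIDO3ΔCT+HADIDO3, both called. The upstream site of Pdgfra (chr5:75183193-75186131) stood at 1.49, 1.36 and 1.86 TPM in WT, 0.627, 0.648 and 0.804 TPM in DIDO3ΔE16, and 0.297, 0.121 and 0.210 TPM in DIDO3ΔCT+HADIDO3. Its groups descended without overlap, as at the leading site. The upstream Pdgfra differences were −1.13, −2.54 and, between the mutants, 1.41 (limma, Benjamini-Hochberg adjusted p = 0.0111), all called. The upstream site of Dab2 (chr15:6427542-6429765), examined because of WT replicate 1, stood at 6.86, 7.82 and 7.66 TPM in WT, 3.97, 3.83 and 3.33 TPM in DIDO3ΔE16, and 2.66, 4.21 and 3.73 TPM in DIDO3ΔCT+HADIDO3. WT replicate 1 did not stand apart at this site, and all WT libraries were above all mutant libraries. The log2 fold change of the upstream Dab2 site was −1.05 in DIDO3ΔE16 (SE 0.12; limma, Benjamini-Hochberg adjusted p = 0.00264) and −1.18 in DIDO3ΔCT+HADIDO3 (SE 0.18; adjusted p = 0.00626), both called. Between the mutants it was 0.11 (limma, Benjamini-Hochberg adjusted p = 0.674), where the leading site was called at 1.09.

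**Figure D3:**
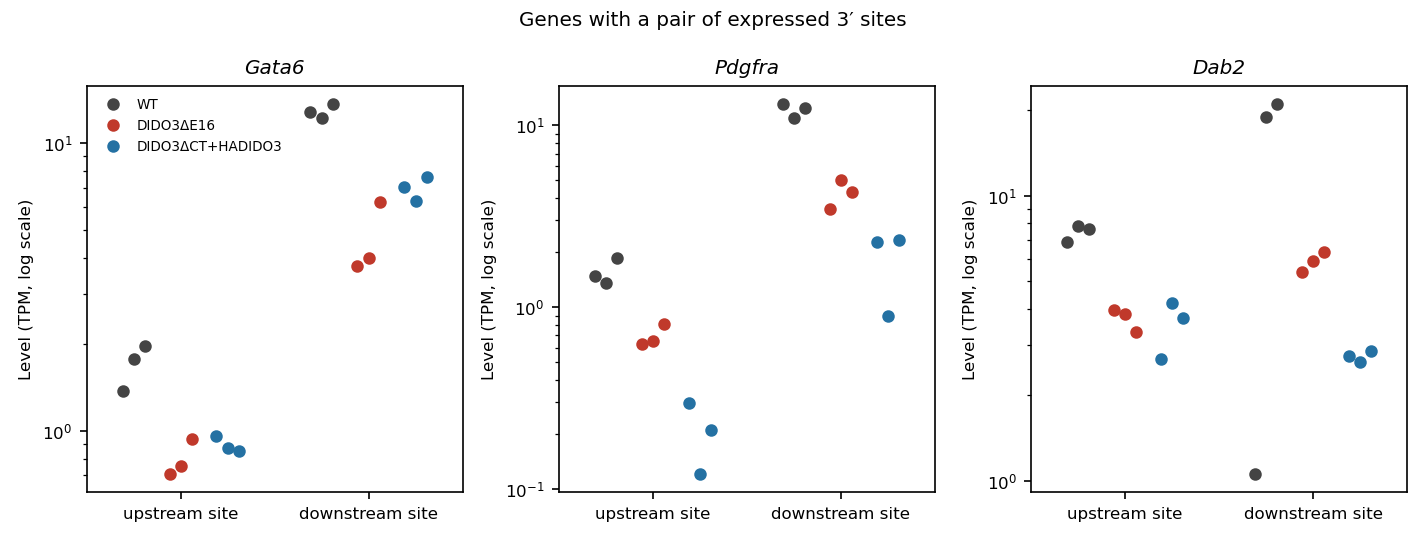
Level in TPM (log axis) at the upstream and the downstream (leading) site of Gata6, Pdgfra and Dab2 in the 3 libraries of each group (points). WT lies above both mutant groups at every site except the downstream site of Dab2, where WT replicate 1 is at 1.06 TPM.

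Genes of the signal that induces primitive endoderm, with some related genes, were read from a list of 16, all tested. Over the leading sites of all genes, 11.5% were called higher and 4.45% lower in DIDO3ΔE16, 10.1% and 8.08% in DIDO3ΔCT+HADIDO3, and 15.5% and 12.2% between the mutants. In DIDO3ΔE16, 2 of the 16 were called, both lower: the receptor genes Fgfr1 (−2.28) and Fgfr2 (−0.72), with a list median of −0.28. In DIDO3ΔCT+HADIDO3, 7 were lower, led by Lrpap1 (−1.99), which is on the list but encodes a chaperone of megalin-type receptors and not a part of FGF signalling, Fgfr2 (−1.92), the feedback inhibitor gene Spry4 (−1.12) and the ligand gene Pdgfc (−0.97); Fgfr3 was higher (1.40) and the median was −0.54. The ligand gene Fgf4, also on the ESC list, was the most abundant in WT and DIDO3ΔE16 (Map2k1 in DIDO3ΔCT+HADIDO3), at 671, 689 and 708 TPM in WT, 655, 670 and 667 TPM in DIDO3ΔE16 and 409, 403 and 400 TPM in DIDO3ΔCT+HADIDO3. Only the latter group was apart by a called difference (−0.87; −0.12 in DIDO3ΔE16, not called). Fgfr1 stood at 288, 293 and 295 TPM in WT, 59.8, 65.5 and 62.5 TPM in DIDO3ΔE16, and 64.5, 310 and 62.6 TPM in DIDO3ΔCT+HADIDO3. DIDO3ΔCT+HADIDO3 replicate 2 was alone at the WT level in its group, and Fgfr1 was not called there (−1.54). The sites of Fgfr1, Lrpap1 and Map2k1 each overlap 1 site on the opposite strand. As at Cubn, the deposited values do not separate such pairs. Between the mutants, 6 genes were higher in DIDO3ΔE16, led by Lrpap1 (1.71), Fgfr2 (1.18), Map2k2 (0.98) and Spry4 (0.91), and Fgfr3 was lower (−1.71); the median was 0.56.

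Of 16 genes of extraembryonic endoderm matrix and parietal endoderm, 4 were called lower in DIDO3ΔE16: the basement membrane genes Col4a1 (−1.04), Lama1 (−1.04), Col4a2 (−0.98) and Lamb1 (−0.76). Fst (1.26), Thbd (1.01) and Snai1 (0.85) were higher, and the median was −0.34. In DIDO3ΔCT+HADIDO3 all 7 called genes were lower, led by Fst (−2.31), Pth1r (−2.01), Col4a1 (−1.96) and Col4a2 (−1.91), with a median of −0.70. Col4a1 stood at 131, 131 and 143 TPM in WT, 66.4, 69.8 and 69.6 TPM in DIDO3ΔE16, and 34.0, 38.5 and 38.9 TPM in DIDO3ΔCT+HADIDO3. Its groups descended without overlap, in the same order as Cubn and Pdgfra. Between the mutants 7 were higher in DIDO3ΔE16, led by Fst (3.55), Thbd (2.29), Pth1r (1.57) and Snai1 (0.95), and Krt19 and Plat (both −1.0) were lower, with a median of 0.36. Fst and Thbd were highest in DIDO3ΔE16 and lowest in DIDO3ΔCT+HADIDO3, the order that the summed feeder fibroblast markers had (given below). Whether cells other than endoderm gave their reads was not tested. The most abundant gene was Lamc1 in WT replicate 4 (544 TPM) and in all mutant libraries (446 to 513 TPM), and Sparc in WT replicates 1 and 2-3 (556 and 546 TPM). Sparc was 3.28 TPM in WT replicate 4, 2.85 TPM in DIDO3ΔE16 replicate 2 and 2.63 TPM in DIDO3ΔCT+HADIDO3 replicate 1.

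The list of visceral endoderm is given for 20 genes, of which 15 were tested in DIDO3ΔE16. Otx2 (−2.25), Lefty1 (−2.16) and Lrp2 (−0.78) were called lower and Foxa1 (1.40) higher, with a median of −0.21. In DIDO3ΔCT+HADIDO3, with 15 tested, Lefty1 (−2.41) and Lrp2 (−2.14) were lower and Rbp4 (1.33), Otx2 (1.01) and Soat2 (0.71) higher, with a median of −0.11. Lrp2, which encodes megalin, the receptor that pairs with cubilin, stood at 14.9, 14.4 and 15.9 TPM in WT, 8.89, 9.69 and 8.78 TPM in DIDO3ΔE16, and 3.27, 3.67 and 3.82 TPM in DIDO3ΔCT+HADIDO3. It descended from group to group without overlap, as Cubn did. Of the 16 tested between the mutants, Lrp2 (1.34) and Foxa1 (0.95) were higher in DIDO3ΔE16 and Otx2 (−3.29) and Soat2 (−0.88) lower, with a median of 0.22. Apoe was the most abundant gene except in WT replicate 2-3 (Lefty1) and DIDO3ΔCT+HADIDO3 replicate 2 (Apom). In these libraries Apoe stood at 0.761 and 0.586 TPM, against 89.2 to 176.5 TPM in the others, and it was not called in any comparison. Apoa4 was at 0 in every library and Cer1 in all but DIDO3ΔCT+HADIDO3 replicate 1. Afp (0 to 0.327 TPM) and Ttr (0 to 0.092 TPM) were near the floor and not tested.

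Definitive endoderm and streak genes, which share Foxa1, Cer1, Lhx1 and Hhex with the list before, were 13, with 11 tested against WT. In DIDO3ΔE16 all 3 called genes were higher, Foxa1 (1.40), T (0.96) and Eomes (0.88), with a median of 0.34. In DIDO3ΔCT+HADIDO3, Cxcr4 (1.12) was higher and Eomes (−0.70) lower, with a median of −0.30. Of 12 tested between the mutants, Fgf5 (1.64), Eomes (1.56), T (1.43) and Foxa1 (0.95) were higher in DIDO3ΔE16 and Mixl1 (−0.99) was lower, with a median of 0.39. Eomes was the most abundant gene in every library.

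**Figure D4:**
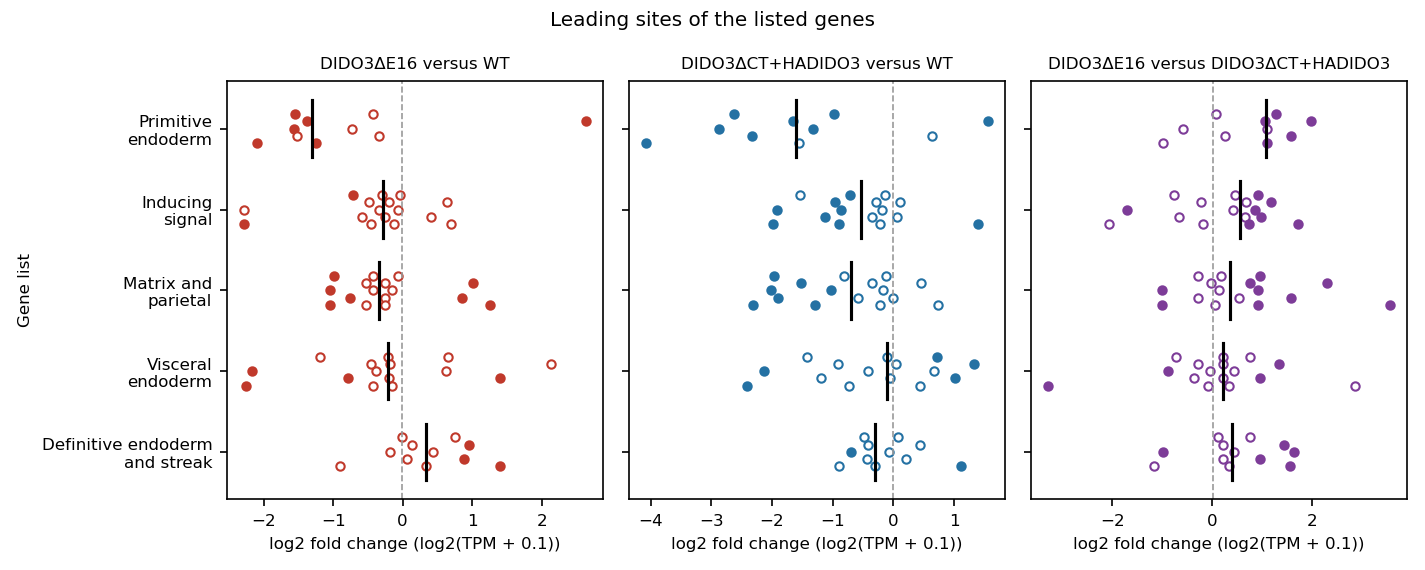
Log2 fold change (horizontal axis, log2(TPM + 0.1) scale) of the leading site of each tested gene (points; filled when called) in 5 gene lists and 3 comparisons, with the list median (black bar) and the median of all sites (dashed line). The median of the primitive endoderm genes is −1.31 in DIDO3ΔE16 and −1.60 in DIDO3ΔCT+HADIDO3 against WT, and 1.08 between the mutants.

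Markers of other cells that the cultures could hold were summed in the same libraries. The 12 feeder fibroblast markers came to 73.9, 75.6 and 84.4 TPM in WT, 170.3, 165.8 and 173.9 TPM in DIDO3ΔE16, and 54.1, 57.7 and 57.6 TPM in DIDO3ΔCT+HADIDO3. This sum was highest in DIDO3ΔE16 and lowest in DIDO3ΔCT+HADIDO3, without overlap. Over all sites of a gene, Col1a2 was the most abundant marker in WT (34.6, 35.6 and 40.2 TPM) and in DIDO3ΔE16 (82.5, 82.9 and 85.2 TPM), but it stood at 0.669, 0.432 and 0.668 TPM in DIDO3ΔCT+HADIDO3, where Thy1 (52.2, 56.1 and 55.0 TPM) made up nearly all of the sum. The calls of these markers are at leading sites, where Col1a2 (18.1, 16.7 and 20.0 TPM) and Thy1 (19.4, 18.1 and 19.7 TPM) were alike in WT. Col3a1 and Twist2 were at 0 in all DIDO3ΔCT+HADIDO3 libraries, and Dcn, Lum and Fap in all WT libraries. All 8 called of 9 tested were higher in DIDO3ΔE16 (median 1.14); of 4 tested in DIDO3ΔCT+HADIDO3, 3 were called lower and Thy1 higher (median −3.40). The same 4 genes between the mutants had a median of 4.56, with Thy1 lower in DIDO3ΔE16. Col3a1, Col6a3, Postn, Twist2 and Prrx1 were lower in every DIDO3ΔCT+HADIDO3 library than in any WT library. They were not tested with that group, as each was at 0 in DIDO3ΔCT+HADIDO3 replicate 2, so its counts and medians leave them out. The 9 trophectoderm markers, which share Eomes with the streak list, came to 345, 331 and 337 TPM in WT, 263, 267 and 272 TPM in DIDO3ΔE16, and 337, 336 and 328 TPM in DIDO3ΔCT+HADIDO3. DIDO3ΔE16 was lowest and the other groups overlapped. Tead4 was the most abundant trophectoderm marker in every library, and Elf5 was at 0 in WT replicates 1 and 2-3. Of 8 tested trophectoderm markers, 2 were called higher and 2 lower in DIDO3ΔE16 (median −0.10) and 1 lower in DIDO3ΔCT+HADIDO3 (median −0.22), and of 9 between the mutants 3 were higher and 4 lower (median −0.15). For the 12 ESC markers the median was 0.06 in DIDO3ΔE16, −0.09 in DIDO3ΔCT+HADIDO3 and 0.41 between the mutants; limma called 0 of them in DIDO3ΔE16, where 4 had an unadjusted p under 0.05. Of these, Klf2 (0.64), Tfcp2l1 (0.39) and Sox2 (−0.30) also passed the adjusted threshold and missed only the fold change of 0.7, while Fgf4 did not pass it. Esrrb (4.99, SE 2.25) and Nanog (3.20, SE 2.33) had the largest log2 fold changes in DIDO3ΔE16 and were not called. At both, every DIDO3ΔE16 library was above every WT library, but the WT libraries stood far apart. Nanog was 664, 676 and 3.10 TPM in WT and 1177, 1054 and 1016 TPM in DIDO3ΔE16. In DIDO3ΔCT+HADIDO3 Zfp42 (1.65) was higher and Fgf4 (−0.87) and Klf4 (−0.75) were lower; between the mutants Fgf4 (0.73) and Klf4 (0.72) were higher in DIDO3ΔE16 and Zfp42 (−1.60) was lower. The part of these cell type markers in the results of the primitive endoderm genes was not tested.

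**Figure D5:**
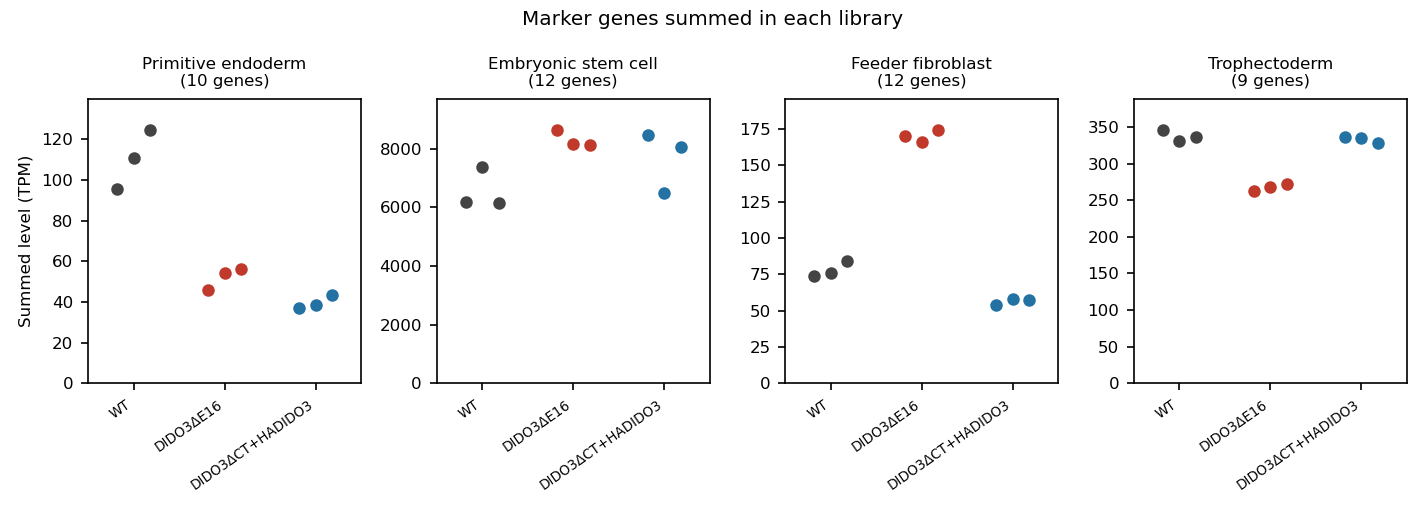
Summed level in TPM (vertical axes, each starting at 0) of 4 marker lists in the 3 libraries of each group (points). The primitive endoderm sum is highest in WT, at 95.4 to 124 TPM, while the feeder sum is highest in DIDO3ΔE16, at 165.8 to 173.9 TPM.

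Of the genes on either side of each member, those called in at least 1 comparison are named. Next to Gata4, Neil2 (13.7 kb away) was −0.78 in DIDO3ΔE16, called, and 0.38 in DIDO3ΔCT+HADIDO3, not called. Between the mutants Neil2 was −1.18 and Fam167a, on the other side of Gata4 (262.3 kb), −1.33, both called. Upstream of Gata6, the noncoding gene 1010001N08Rik (33.7 kb from the leading site) was lower in both mutants, at −1.61 and −1.76, both called, as Gata6 itself was. Gsx2, 115.2 kb from Pdgfra, was 1.17 in DIDO3ΔE16, called, where Pdgfra was lower. Beside Cubn, Rsu1 (57.7 kb) was −1.05 in DIDO3ΔE16 and 0.92 in DIDO3ΔCT+HADIDO3, both called, so it parted from Cubn in the latter, and −1.99 between the mutants, also called. R3hdml, 65.5 kb from Hnf4a, was 1.28 in DIDO3ΔE16, called, −0.13 in DIDO3ΔCT+HADIDO3, not called, and 1.40 between the mutants, called. On the other side, Ttpal (37.1 kb) was 2.82 and 0.87 in these comparisons, neither called, and 1.94 between the mutants, called. Within 500 kb of Hnf4a, 6 of 19 other tested sites were called higher in DIDO3ΔE16, where 10.2% of all sites were, and 1 was lower, with a median of 0.54. In DIDO3ΔCT+HADIDO3, 1 was higher and 2 were lower there, with a median of 0.05. Of all sites in that comparison, 10.1% were called higher and 7.24% lower. Around Gata4, 2 of 15 were higher and 1 lower in DIDO3ΔE16 (median −0.06), and 2 of 13 higher and 1 lower in DIDO3ΔCT+HADIDO3 (median −0.01). Around Cubn, 1 of 7 was called in DIDO3ΔE16, Rsu1, which was lower (median 0.00). In DIDO3ΔCT+HADIDO3, 2 of 7 were called there, both higher (median 0.39). No site was called around Sox17 in DIDO3ΔE16 (6 tested, median −0.09) or around Pdgfra in DIDO3ΔCT+HADIDO3 (3 tested, median 0.46). In DIDO3ΔE16 the windows of the other members had 2 of 3 sites called higher around Foxa2 (median 1.01), 2 of 9 higher around Dab2 (median 0.02), 1 of 3 higher around Pdgfra (median 0.06), 1 of 6 higher around Sox7 (median −0.07), 1 of 5 higher and 1 lower around Gata6 (median −0.42), and 2 of 27 lower around Amn (median 0.01). In DIDO3ΔCT+HADIDO3 they had 1 of 2 lower around Foxa2 (median −0.82), 1 of 8 higher and 1 lower around Dab2 (median −0.08), 1 of 6 lower around Sox7 and around Sox17 (median −0.06 for the latter), 1 of 5 higher and 1 lower around Gata6 (median −0.10), and 2 of 28 higher around Amn (median 0.05).

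Gata4, the most abundant member, was used as a reference for profiles over the 9 libraries, taken as the mean absolute difference of centred log2 levels. Of 20526 sites, the 5 nearest were Podxl (0.086), Enpp3 (0.103), Trh (0.133), Ap3b2 (0.140) and Esrp1 (0.140). Sox7 was the nearest member, at rank 9 (0.148), on the same chromosome as Gata4. Gata6 came at rank 161 (0.337), Sox17 at rank 1035 (0.493) and Pdgfra at rank 1111 (0.498). The other members were farther by this measure: Foxa2 at rank 7265 (0.669), Dab2 at rank 12555 (0.838), Amn at rank 13968 (0.908), Cubn at rank 14207 (0.922) and Hnf4a at rank 19411 (1.60). The measure counts the size of differences as well as their direction, so a distant rank does not mean another order of groups. Foxa2, Dab2 and Cubn had the same order of group means as Gata4. Cubn had larger differences from WT (−2.09 and −4.08) than Gata4 (−1.37 and −1.65), and Dab2 was low in WT replicate 1. Podxl stood at 108.5, 105 and 114 TPM in WT, 43.9, 48.5 and 50.8 TPM in DIDO3ΔE16, and 38.4, 44.4 and 48.5 TPM in DIDO3ΔCT+HADIDO3. As with Gata4, its WT libraries were all above those of both mutants.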

How the data were processed

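RNA-seq values of 9 libraries were used as deposited. By the processing notes of the authors, BWA-MEM (0.7.15) alignments to mm10 were freed of duplicates and quantified by StringTie (1.3.3), limited to a reference of UCSC 3′UTR annotation extended by 2 kb; the TPM values are those of StringTie, deposited by the authors without scaling between libraries. Mean coverage, deposited by the authors in the StringTie output, served only for depth.

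Features were named from GENCODE coordinates (42367 of 43031), and TPM was summed over features with identical coordinates and strand. Scaling factors came from log2 ratios averaged after trimming 30% at both ends. Scaled TPM + 0.1 went as log2 into limma (3.58.1, R 4.3.3; trend and robust, 2-sided), fitted for each of 3 comparisons to sites above 0 TPM in every library compared, adjusted by Benjamini-Hochberg over all sites. The procedure was tested on simulated data. Python (3.11.15) with numpy (2.4.6), pandas (2.3.3), scipy (1.17.1) and matplotlib (3.10.9) was used for the rest.

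Members and lists were chosen with earlier results of these data known; some genes planned for the visceral endoderm list are not reported here, and its counts and medians are without them. Named were all 10 members by every site, Dido1, markers as sums with the most abundant and those at 0, the most abundant gene and up to 4 called genes in each direction of each list, the 5 profiles nearest to the most abundant member, and the neighbouring genes called in a comparison; genes outside the members whose library values are shown were picked after seeing their values. Alternatives were pseudocounts of 0.01 and 1, no filter, a filter at a mean of 1 TPM, quantile normalization, no scaling, 1 fit of all 9 libraries, features as listed, sums over genes, the family of sequencing codes as a covariate (not read as a test against WT, as 1 WT library shares the family of the mutants), the replicate number as a block, and leaving out each library; the upstream site of Dab2 was added after seeing the data.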

Additional observations from a re-analysis of the deposited data

Results flagged for a closer look

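Members that differed between the mutant groups by limma, in a comparison without WT libraries, are listed here with their log2 fold change of DIDO3ΔE16 relative to DIDO3ΔCT+HADIDO3. Cubn differed by 1.97, with 2.50 ± 0.199 TPM (SD, n = 3) and 0.602 ± 0.269 TPM. Sox17 differed by 1.58, with 1.92 ± 0.696 TPM and 0.553 ± 0.0274 TPM. For Pdgfra the difference was 1.28, at 4.27 ± 0.771 TPM and 1.84 ± 0.817 TPM. It was 0.85 without DIDO3ΔCT+HADIDO3 replicate 2, and the call was lost in 9 alternatives. Dab2 differed by 1.09 at its leading site, at 5.88 ± 0.478 TPM and 2.73 ± 0.111 TPM. At its upstream site the difference was 0.11, not called. For Hnf4a it was 1.06, at 8.25 ± 0.551 TPM and 3.95 ± 0.174 TPM, and unlike the other genes both groups were above WT.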

How the results depend on the processing

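Leaving out each library in turn called 2725 to 2955 sites in DIDO3ΔE16 against WT, 3150 to 3491 in DIDO3ΔCT+HADIDO3 against WT and 5466 to 5552 between the mutants, and 6 to 7, 8 to 9 and 4 to 5 members. Counts of members stayed within 1.5 times of those reported under every alternative, except 3 between the mutants with features as listed. Dab2 was among the calls lost there, as it was then read at its upstream site. The cause of the rest of that drop was not tested. Values that changed sign were Dab2 in DIDO3ΔE16 against WT, at 0.21 without WT replicate 2-3 and 0.29 without WT replicate 4 (−1.82 without WT replicate 1), and Sox7 between the mutants, at −0.03 without DIDO3ΔE16 replicate 2 and −0.01 without DIDO3ΔE16 replicate 3 or DIDO3ΔCT+HADIDO3 replicate 2 (0.24 without DIDO3ΔE16 replicate 1). Dab2 between the mutants lost its call in 1 fit of all 9 libraries (1.11), at the upstream site (0.11), which is also the feature with the highest level when features are used as listed (0.11), and in sums over the gene (0.60), and Pdgfra in 9 of 16 alternatives. Gata4, Cubn and Hnf4a kept direction and call in every comparison and alternative run (the covariate of sequencing code families left aside), and so did Gata6, Sox7 and Pdgfra against WT and Sox17 and Foxa2 in DIDO3ΔCT+HADIDO3 against WT. With features as listed, Dab2 was therefore read at the upstream site and called in both mutants against WT (−1.05 and −1.17). Quantile normalization split the called sites of DIDO3ΔE16 into 1688 higher and 1379 lower, where the split reported is 2151 and 1040. Without scaling the split was 2312 and 838. For DIDO3ΔCT+HADIDO3 it was 2101 and 1511 as reported, 1872 and 1581 by quantile normalization, and 2494 and 1221 without scaling. A filter at a mean of 1 TPM left Foxa2 untested in DIDO3ΔCT+HADIDO3 and between the mutants. With the replicate number as a block, 5183 sites and 4 members were called between the mutants (Pdgfra not called, adjusted p = 0.11, limma with Benjamini-Hochberg; 0.0159 to 0.126 over the alternatives); deviations of libraries with the same number correlated at 0.0134, 0.0181 and 0.0194, so the mutants share only a number. No paired analysis was possible because WT replicate 2-3 has no number of its own for the comparisons with WT. Depth limits the low genes: Foxa2 had 0.124 kb of aligned bases in DIDO3ΔE16 replicate 1.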
